A study of Homo sapiens with 6 samples.

Results

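The genes described here are 10 regulators of the cell cycle transcription program: the E2F factors E2F1, E2F2, E2F7 and E2F8, the RB family genes RB1, RBL1 and RBL2, the MYB family genes MYBL1 and MYBL2, and FOXM1. They were picked by name from the 58735 genes in the deposited tables by a rule that uses no measured value, though with earlier results of these data known, and all 10 were found and passed the filter on low counts, as did 14736 genes in all. The samples were cultures of MDA-MB-231, a human triple-negative breast cancer (TNBC) cell line labelled wild type, grown for 24 h with vehicle (3 samples) or with an aqueous extract of Salvia chinensis Benth (SCH) at 100 mg/l (3 samples). The labels call the samples of a group biological repeats without saying how they were separated. The p-values therefore set a difference against the spread between these samples, which the gene tests moderated over the tested genes. The mRNA was purified with poly-T beads and sequenced. Counts summed over all genes to 20291379, 18714240 and 18334857 in the libraries grown with vehicle, and to 16836369, 17979434 and 18414924 in those grown with SCH. Of the markers fixed for the line, VIM, CD44, CAV1 and AXL summed to between 749 and 764 FPKM (fragments per kilobase, scaled by a depth factor of each library) in the vehicle samples and between 484 and 494 in the SCH samples. VIM (vimentin, whose exons overlap those of other genes over 24.4% of their length), CAV1 and AXL fell, and CD44 did not pass the test (log2 fold change 0.033). Of the luminal markers, ESR1 had 0.0152 ± 0.000755 FPKM (SD, n = 3) after vehicle and PGR had no count in any vehicle sample, while GATA3 and EPCAM fell with SCH and the 5 luminal markers summed to 10.5, 10.0 and 10.7 FPKM after vehicle and 7.25, 6.08 and 7.24 after SCH. The 4 leukocyte markers summed to between 0.468 and 0.925 FPKM after vehicle and 0.595 and 0.666 after SCH. PTPRC, named here after its values were seen, fell from 0.210 to 0.0307 FPKM. Its counts were few, with 34 to 39 per vehicle sample and 3 to 9 per SCH sample. The 3 fibroblast markers summed to between 0.615 and 0.716 FPKM after vehicle and between 0.911 and 1.04 after SCH, with COL1A1 the most abundant and DCN without a count. The 3 endothelial markers summed to between 0.115 and 0.212 FPKM after vehicle and between 0.115 and 0.202 after SCH. The part of these markers in the results for the regulators was not tested.

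E2F factors bind DNA with a DP partner and switch on genes for DNA replication at the passage from G1 to S phase. RB1, RBL1 (p107) and RBL2 (p130) hold E2F factors in check until cyclin-dependent kinases phosphorylate them. RBL1 or RBL2 together with E2F4 or E2F5, DP and the MuvB core form the DREAM complex, a repressor of cell cycle genes in resting cells. In cycling cells the MuvB core binds B-MYB, the product of MYBL2, and then FOXM1, and these switch on the genes of G2 phase and mitosis. E2F7 and E2F8 are atypical E2F factors, which need no DP partner and repress E2F target genes. Several of the regulators are themselves E2F target genes.

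Sequences of gene starts were taken from RefSeq on GRCh38.p14, as windows of 300 bases that run from 250 bases before to 50 bases after each start, and 7 of the 10 regulators matched an entry (E2F1, E2F2, E2F7, RB1, RBL1, RBL2 and MYBL2). The windows were searched on both strands for the letters of an E2F site (TTTCCCGC, TTTCGCGC, TTTGCCGC or TTTGGCGC), of a CHR element (TTTGAA), to which the MuvB core binds, and of a CCAAT box (CCAAT), the site of the factor NF-Y. The 150 bases just before the start are shown for the 3 regulators that hold E2F letters, and for ASPM and CKS2, which are G2/M genes with both CHR and CCAAT letters. Capitals mark the matches on either strand, and no E2F, CHR and CCAAT matches overlap in these 5 windows.
E2F1 (chr20:33686386-33686535, minus strand): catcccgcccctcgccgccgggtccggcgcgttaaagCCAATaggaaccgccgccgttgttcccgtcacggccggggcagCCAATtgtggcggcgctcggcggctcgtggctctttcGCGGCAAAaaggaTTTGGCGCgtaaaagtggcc
E2F2 (chr1:23531234-23531383, minus strand): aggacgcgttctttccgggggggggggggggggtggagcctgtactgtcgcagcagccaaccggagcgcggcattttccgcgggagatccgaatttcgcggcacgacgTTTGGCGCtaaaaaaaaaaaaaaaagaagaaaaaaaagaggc
RBL1 (chr20:37095998-37096147, minus strand): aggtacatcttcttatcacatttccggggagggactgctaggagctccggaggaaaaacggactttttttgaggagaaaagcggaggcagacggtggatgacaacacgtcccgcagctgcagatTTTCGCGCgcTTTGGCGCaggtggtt
ASPM (chr1:197146670-197146819, minus strand): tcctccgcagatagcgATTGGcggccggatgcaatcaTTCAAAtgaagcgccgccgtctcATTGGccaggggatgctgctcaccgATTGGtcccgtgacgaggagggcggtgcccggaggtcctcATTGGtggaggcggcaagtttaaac
CKS2 (chr9:89311045-89311194, plus strand): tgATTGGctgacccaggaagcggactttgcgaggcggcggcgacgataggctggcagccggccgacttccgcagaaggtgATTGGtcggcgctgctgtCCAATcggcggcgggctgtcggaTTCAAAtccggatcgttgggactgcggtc
E2F letters were in 3.31% of all 35116 windows, CHR letters in 15.2%, CCAAT letters in 34.6%, and both of the latter in 5.90%. By gene, E2F letters were in the windows of 3 of the 7 regulators with an entry (42.9%) and of 19 of 32 G1/S targets of E2F (59.4%), against 3.99% of all genes in the RefSeq table and 6.61% of the tested genes with a window. Both CHR and CCAAT letters were in 21 of 31 G2/M targets (67.7%), against 7.26% of all genes and 5.66% of the tested genes with a window. Among the regulators, the CHR letters appeared only in a window of RBL2. The window of RB1 starts inside the gene, at 48476200 on chromosome 13, and the 10 regulators as a set are therefore not fully covered. The match of letters is a description of these windows and shows no binding.

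After 24 h of SCH, 4 of the 10 regulators had changed, against 58.7% of all tested genes. FOXM1, E2F2 and RBL2 fell, which is 3 of 10 beside 29.4% of all tested genes lowered, and RB1 rose, which is 1 of 10 beside 29.3% raised. E2F1, E2F7, E2F8, RBL1, MYBL1 and MYBL2 did not pass the test. The changes were small. The median absolute log2 fold change was 0.14 over the regulators and 0.31 over all tested genes, and that of 9 of the 10 regulators lay below the latter. The 95% interval of the log2 fold change lay within 0.5 on either side of 0 for all 10. In 4 of the 10 the SCH samples did not overlap the vehicle samples (FOXM1, E2F2, RBL2 and E2F8), against 62.4% of all tested genes. The test was edgeR's quasi-likelihood test on the counts with TMM scaling, and an adjusted p (Benjamini-Hochberg over the 14736 genes) under 0.05 counted as changed. With library size as the only scaling, which moved the median over all tested genes to 0.099 (log2), 5 regulators were raised (E2F7, E2F8, RB1, MYBL1 and MYBL2) and FOXM1 alone was lowered. With this scaling, 5519 of all 14736 tested genes were raised and 3295 lowered. DESeq2 called 2 regulators, beside 7555 of the 17546 genes it tested. Leaving out vehicle replicate 1, vehicle replicate 2 or SCH replicate 1 left 2 regulators, and leaving out SCH replicate 2 left 1, FOXM1. Over all tested genes, the count with a replicate left out lay between 7809 and 8489.

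**Figure D1:**
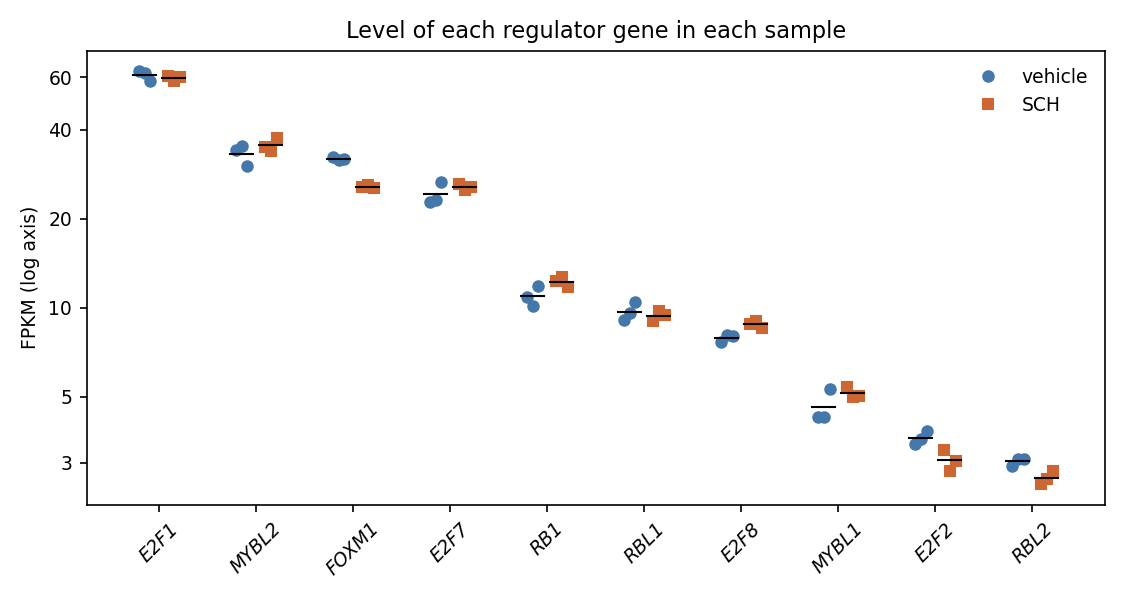
FPKM of each of the 10 regulator genes in each of the 6 samples, on a log axis, with circles for vehicle, squares for SCH and a line at the mean of each group of 3. FOXM1 shows the clearest gap, from 31.6 or more after vehicle to 26.1 or less after SCH, while the groups of E2F1, E2F7, RB1, RBL1, MYBL1 and MYBL2 overlap.

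The order of the levels, read in FPKM, which divides by gene length, was the same in both groups. E2F1 was highest, at 61.1 ± 2.33 FPKM (SD, n = 3) after vehicle, above 95.1% of all tested genes. RBL2 was lowest, at 3.03 ± 0.102 FPKM, and above 41.4% of them, so that the regulators spanned a 20.2-fold range. After vehicle, MYBL2 at 33.1 ± 2.65 FPKM and FOXM1 at 31.9 ± 0.324 FPKM overlapped, as did RB1 and RBL1, and all other neighbours in the order were apart. After SCH, MYBL2 at 35.5 ± 1.89 FPKM stood apart from FOXM1 at 25.7 ± 0.369 FPKM. FOXM1 then overlapped with E2F7, at 25.6 ± 0.696 FPKM, E2F2 overlapped with RBL2, and the other neighbours were apart.

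FOXM1 (ENSG00000111206), on chromosome 12 from 2857681 to 2877155 (GRCh38), encodes the forkhead factor that activates genes of G2 phase and mitosis. Its level was 32.3, 31.6 and 31.8 FPKM in the vehicle samples and 25.5, 26.1 and 25.4 FPKM in the SCH samples. The groups were apart, and the spread within each was the narrowest among the regulators, with a coefficient of variation of 1.01% after vehicle and 1.42% after SCH on TMM-scaled CPM (counts scaled to depth). FOXM1 fell by 19.9%, or by log2 fold change -0.32 (SE, the standard error, 0.048, edgeR adjusted p = 5.00e-06). It was lowered in all 15 alternative fits, with log2 fold changes from -0.35 to -0.22. Of its exonic bases, 15.9% lie in exons of ITFG2 on the opposite strand, and whether the counting used strand is not given in the sources used here. ITFG2 had a log2 fold change of -0.23 (SE 0.113, edgeR adjusted p = 0.0864) at 12.1 CPM after vehicle and 10.3 CPM after SCH.

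MYBL2 (ENSG00000101057), on chromosome 20 from 43667019 to 43716496, encodes B-MYB. It had 34.0, 35.2 and 30.2 FPKM in the vehicle samples and 35.0, 33.9 and 37.6 FPKM in the SCH samples. The groups overlapped, with vehicle replicate 3 the lowest sample and SCH replicate 3 the highest. The log2 fold change was 0.092 (95% interval -0.035 to 0.22, edgeR adjusted p = 0.205). It was 0.031 without vehicle replicate 3 and 0.14 without vehicle replicate 2, and passed the test in neither fit. MYBL1 (ENSG00000185697), on chromosome 8 from 66562175 to 66614247, encodes A-MYB, known for its role in male germ cells. It had 4.29, 4.26 and 5.31 FPKM after vehicle and 5.41, 4.99 and 5.04 FPKM after SCH. Vehicle replicate 3 lay among the SCH samples, and the other vehicle samples lay below all of them. The log2 fold change of MYBL1 was 0.15 (95% interval -0.016 to 0.31, edgeR adjusted p = 0.115), and without vehicle replicate 3 it was 0.26 (adjusted p = 0.00287).

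E2F1 (ENSG00000101412), on chromosome 20 from 33675683 to 33686404, encodes the founding activator E2F. Its level was 62.9, 61.9 and 58.4 FPKM after vehicle and 60.6, 58.2 and 60.4 FPKM after SCH, and the groups overlapped. Its log2 fold change was -0.039, with a 95% interval from -0.14 to 0.064 (edgeR adjusted p = 0.518), or between -9.42% and 4.53% in percent. With a replicate left out, the log2 fold change lay between -0.068 and -0.013. With library size only it was 0.064 (adjusted p = 0.272), the other side of 0. E2F2 (ENSG00000007968), on chromosome 1 from 23506430 to 23531220, encodes a second activator and was expressed at a far lower level. It had 3.48, 3.60 and 3.83 FPKM after vehicle and 3.30, 2.81 and 3.05 FPKM after SCH, with every SCH sample below every vehicle sample. E2F2 fell, at a log2 fold change of -0.26 (SE 0.088, edgeR adjusted p = 0.0139), on 294 to 385 counts per sample. That call was lost with library size only (log2 fold change -0.16, adjusted p = 0.130), in DESeq2 (-0.25, adjusted p = 0.0720) and without SCH replicate 2 (-0.20, adjusted p = 0.103).

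E2F7 (ENSG00000165891), on chromosome 12 from 77021247 to 77065580, and E2F8 (ENSG00000129173), on chromosome 11 from 19224063 to 19241620, encode the atypical repressors. E2F7 had 22.9, 23.1 and 26.5 FPKM after vehicle and 26.3, 24.9 and 25.6 FPKM after SCH. Vehicle replicate 3 was the highest of all 6 samples, and the other vehicle samples were the lowest. The log2 fold change of E2F7 was 0.078 (95% interval -0.039 to 0.20, edgeR adjusted p = 0.244), and 0.15 (adjusted p = 0.00686) without vehicle replicate 3. E2F8 had 7.69, 8.09 and 8.01 FPKM after vehicle and 8.79, 9.03 and 8.54 FPKM after SCH. All SCH samples of E2F8 were above all vehicle samples, yet its log2 fold change of 0.14 (95% interval 0.0032 to 0.28) missed the threshold, with an adjusted p of 0.0737 from edgeR's test. It passed with library size only (0.24, adjusted p = 0.00317) and with limma on log2(FPKM + 1) (0.13, adjusted p = 0.0440).

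RB1 (ENSG00000139687), on chromosome 13 from 48303726 to 48599436, encodes the retinoblastoma protein. It had 10.9, 10.2 and 11.9 FPKM after vehicle and 12.3, 12.7 and 11.8 FPKM after SCH, and vehicle replicate 3 was above the lowest SCH sample. RB1 rose, at a log2 fold change of 0.15 (SE 0.061, edgeR adjusted p = 0.0366), a call lost in 7 of 15 alternative fits (adjusted p up to 0.196). RBL1 (ENSG00000080839), on chromosome 20 from 36996349 to 37095995, encodes p107, itself a product of an E2F target gene. Its values were 9.06, 9.57 and 10.5 FPKM after vehicle and 9.03, 9.74 and 9.43 FPKM after SCH, and the groups overlapped throughout. Its log2 fold change was -0.050 (95% interval -0.18 to 0.082, edgeR adjusted p = 0.519).

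RBL2 (ENSG00000103479), on chromosome 16 from 53433977 to 53491649, encodes p130, the RB family protein of resting cells. It had 2.91, 3.10 and 3.08 FPKM after vehicle and 2.54, 2.63 and 2.82 FPKM after SCH, with the SCH samples below the vehicle samples. RBL2 fell, at a log2 fold change of -0.19 (SE 0.081, edgeR adjusted p = 0.0490). This call lay just inside the threshold and was lost in 11 of 15 alternative fits (adjusted p up to 0.373). Of its exonic bases, 18.2% lie in exons of other genes on the opposite strand.

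Ratios between regulators were formed per sample from FPKM and the groups were compared by two-sided exact permutation, whose smallest possible p is 0.1 for 3 samples against 3. The ratio of RBL2 to RBL1 was 0.321, 0.324 and 0.294 after vehicle and 0.282, 0.270 and 0.299 after SCH (exact permutation p = 0.2, and 0.45 adjusted over the 3 ratios). SCH replicate 3 lay above vehicle replicate 3, so that the groups overlapped. The ratio of the activators E2F1 plus E2F2 to the repressors E2F7 plus E2F8 was 2.17, 2.10 and 1.803 after vehicle and 1.82, 1.797 and 1.86 after SCH (exact permutation p = 0.3, 0.45 adjusted). Vehicle replicate 3 lay among the SCH samples, and the other vehicle samples above them. The activator E2F3, which is not among the regulators, was left out of this ratio. Its mean level was 14.3 FPKM after vehicle and 12.7 FPKM after SCH. The ratio of MYBL2 to MYBL1 was 7.29 ± 1.41 (SD, n = 3) after vehicle and 6.91 ± 0.507 (SD, n = 3) after SCH (exact permutation p = 0.8, also when adjusted). Single libraries decided the size of the log2 difference in the last ratio, which was -0.061 with all samples, -0.23 without vehicle replicate 3, 0.0090 without vehicle replicate 1 and 0.039 without vehicle replicate 2. For E2F1 plus E2F2 over E2F7 plus E2F8 it was -0.15, and -0.23 without vehicle replicate 3 or -0.094 without vehicle replicate 1. With so few samples, none of the 3 ratios could pass the threshold.

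**Figure D2:**
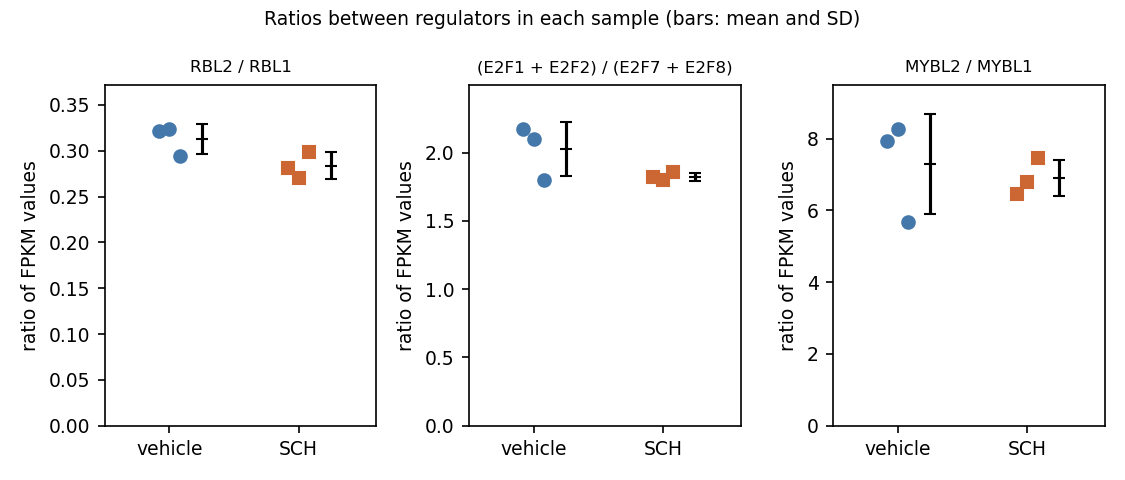
Ratio of FPKM values between regulators in each sample, from 0 on each axis, with circles for vehicle and squares for SCH and bars for the mean and SD of 3 samples. In all 3 panels the vehicle and SCH samples overlap, and vehicle replicate 3 is the lowest vehicle sample.

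Partners of the regulators were described by lists. The list of E2F, DP and MYB relatives held 8 genes, of which 7 were tested, 5 fell and 1 rose, and their median log2 fold change was -0.43 beside -0.0034 over all tested genes. The share that changed was 85.7%, beside 58.7% of all tested genes. E2F4, the E2F of the repressor complexes, fell from 42.2 ± 2.52 to 30.2 ± 1.18 FPKM (SD, n = 3 each), or by log2 fold change -0.49 (SE 0.054, edgeR adjusted p = 5.88e-08). E2F5, with the same role, fell from 1.74 ± 0.126 to 0.877 ± 0.106 FPKM (log2 fold change -0.995, SE 0.13), although 18.6% of its exonic bases lie in exons of other genes. TFDP1, which encodes the main DP partner, fell from 67.8 ± 0.421 to 50.5 ± 2.40 FPKM (log2 fold change -0.43, SE 0.049). The activator E2F3 fell as well (-0.18), as did MYB (-0.58) on 50 to 90 counts per sample, while TFDP2 rose (0.17, edgeR adjusted p = 0.0403) and E2F6 did not pass the test (0.081). The call of TFDP2 was lost with upper quartile scaling, in DESeq2, in both limma fits and without vehicle replicate 1, vehicle replicate 2, SCH replicate 1 or SCH replicate 2. TFDP3 had no count in any sample. Without SCH replicate 2, 3 of the 7 passed, beside 7903 of 15081 tested genes.

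Of the 6 genes for the MuvB core and its DREAM kinase, 2 rose and 1 fell, a share of 50% beside 58.7% of all tested genes, and the log2 fold changes ran from -0.76 to 1.09 around a median of 0.015. RBBP4, a histone chaperone subunit that many other complexes share, fell from 12.4 ± 0.263 to 7.32 ± 0.349 FPKM (log2 fold change -0.76, SE 0.055, edgeR adjusted p = 4.04e-11). Exons of SYNC on the opposite strand cover 18% of its exonic bases. LIN54, the subunit that binds the CHR element, rose from 4.76 ± 0.701 to 6.55 ± 0.126 FPKM (log2 fold change 0.46, SE 0.081, edgeR adjusted p = 4.03e-05). LIN37 rose on 10 to 34 counts per sample (log2 fold change 1.09), but 54.0% of its exonic bases lie in exons of other genes and its value is uncertain. LIN9 (-0.079), LIN52 (-0.17) and DYRK1A (0.11), the kinase that promotes assembly of DREAM, did not pass the test.

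Kinases that act on the RB family, with their cyclins, went in both directions. Of 9 genes, 4 fell and 3 rose, so that 77.8% changed beside 58.7% of all tested genes. CCND1, cyclin D1, fell (log2 fold change -0.83, SE 0.047), and so did CDK4 (-0.50), CDK6 (-0.36) and CCNA2, cyclin A2 (-0.72). The cyclin E genes CCNE1 and CCNE2, whose products act with CDK2 late in G1, rose by 0.68 (SE 0.085) and 0.67 (SE 0.12), and CCND3 by 0.40. CDK2, with a log2 fold change of -0.033 (95% interval -0.14 to 0.076), and CCND2 (0.15) did not pass the test. Exons of other genes cover 43.2% of the exonic bases of CDK4, 37.1% of those of CCNE2 and 16.8% of those of CDK2. For CCND2 and CCND1 the shares were 13.8% and 10.3%. Of 5 tested CDK inhibitors 3 rose, or 60% beside 29.3% of all tested genes. CDKN1A (p21) rose most, from 32.8 ± 2.52 to 167 ± 2.84 FPKM, and CDKN1C (0.93) and CDKN2D (0.31) rose too, while CDKN1B (-0.10) and CDKN2C (-0.097) did not pass the test. CDKN2A and CDKN2B had no count in any sample, in a line known for the deletion of this locus.

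**Figure D3:**
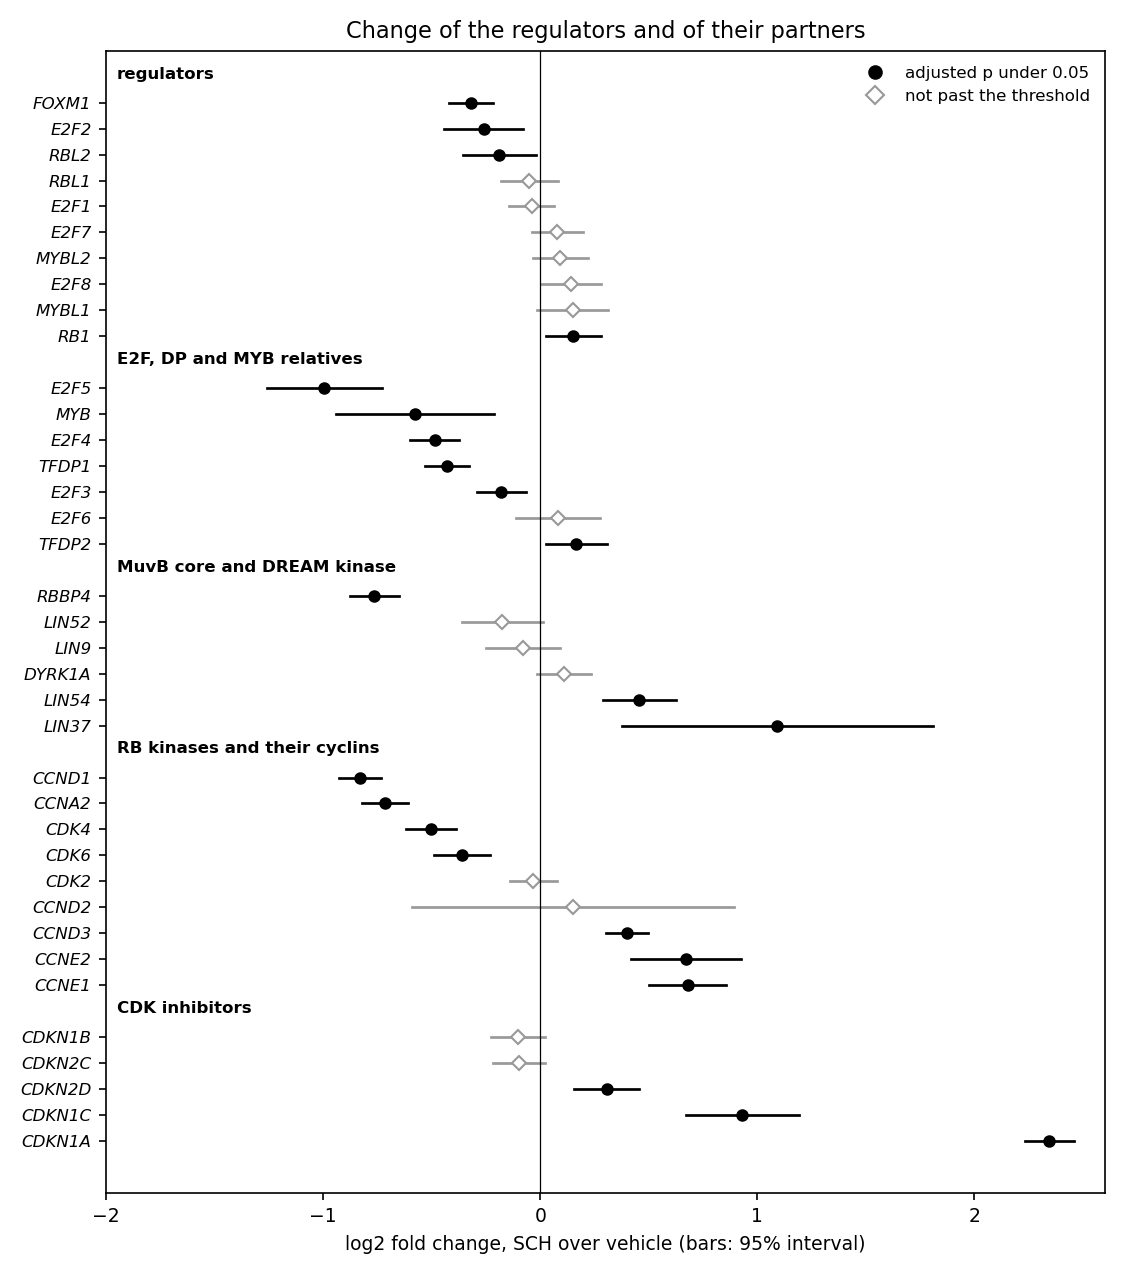
Log2 fold change of SCH over vehicle for the regulators and the genes of 4 partner lists, with 95% intervals from edgeR's quasi-likelihood fit, filled circles for an adjusted p under 0.05 and open diamonds otherwise. The 10 regulators sit between -0.32 and 0.15, while CDKN1A reaches 2.34 and E2F5 -0.995.

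A further list held ubiquitin ligase parts and regulators, of either effect, that act on E2F factors or the RB network. In it 6 of 7 fell, with a median log2 fold change of -0.28. The share that fell was 85.7% beside 29.4% of all tested genes. CDC20, an activator of the ubiquitin ligase APC/C, fell from 216 ± 9.83 to 76.8 ± 0.702 FPKM (log2 fold change -1.50, SE 0.049). SKP2, the substrate receptor of an SCF ligase, fell from 10.1 ± 1.07 to 5.32 ± 0.2499 FPKM (log2 fold change -0.93, SE 0.082). CCNF, cyclin F, a receptor of another SCF ligase, fell by 0.58 on the log2 scale, and the scaffold CUL1 by 0.28, with 11.8% and 10.9% of their exonic bases in exons of other genes. FZR1, named here because it was the one that did not pass, had a log2 fold change of -0.076. The 10 co-repressor genes of the RB family all changed, 5 in each direction, beside 58.7% of all tested genes changed. ARID4A (0.60) and ARID4B (0.55, overlapped by exons of other genes over 15.7% of its exonic length), which encode RB-binding proteins, rose, and SMARCA4 (-0.36), the ATPase of a chromatin remodelling complex, and the deacetylase gene HDAC2 (-0.36) fell.

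Genes known to be controlled by the regulators were described as G1/S and G2/M lists. Of 35 tested G1/S targets of E2F, 16 fell and 3 rose, with a median log2 fold change of -0.092, and 16 did not pass the test. The share that changed in either direction, 54.3%, was near the 58.7% of all tested genes. By direction, 16 of 35 fell beside 29.4% of all tested genes lowered, and 3 of 35 rose beside 29.3% raised. The smallest p-values belonged to genes of the replicative helicase. MCM5 fell from 22.2 ± 1.10 to 12.02 ± 0.356 FPKM (log2 fold change -0.89, SE 0.053), followed by MCM6 (-0.77), GINS2 (-0.93) and MCM7 (-0.66). RRM2, a ribonucleotide reductase subunit, rose by 0.43, CLSPN, the checkpoint mediator claspin, by 0.45, and PCNA, the sliding clamp, by 0.12. Exons of another gene cover 20.2% of the exonic bases of RRM2. With library size only, 7 of these targets were raised and 11 lowered, and the median was 0.012. Over all 14736 tested genes, that scaling gave 5519 raised and 3295 lowered, and a median of 0.099.

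Of 36 G2/M targets of B-MYB-MuvB and FOXM1, 33 fell and 3 did not pass the test, with a median log2 fold change of -0.61. The share that fell was 91.7%, beside 29.4% of all tested genes. PLK1, a kinase of mitotic entry, fell from 33.3 ± 0.492 to 8.79 ± 0.547 FPKM (log2 fold change -1.93, SE 0.057), and AURKA, the centrosomal kinase Aurora A, from 85.9 ± 0.556 to 27.2 ± 0.772 FPKM (log2 fold change -1.66, SE 0.050). Of the exonic bases of PLK1, 12.5% lie in exons of other genes. CCNB1, cyclin B1, and KIF20A, a mitotic kinesin, fell by 1.55 and 1.56 on the log2 scale. ASPM, a spindle pole protein gene, fell by 0.80 and CKS2, a CDK subunit gene, by 0.63, and these are the genes whose CHR and CCAAT letters are printed above, picked after their values were seen. The log2 fold change was below that of FOXM1 in 28 of the 36 targets, and in 21 the whole 95% interval lay below that of FOXM1. CDK1, the mitotic kinase, had 41.0 ± 3.10 FPKM after vehicle and 43.6 ± 1.61 FPKM after SCH (log2 fold change 0.083, edgeR adjusted p = 0.210). NUSAP1 and PRC1 did not pass either, and 62.2% and 58.4% of their exonic bases lie in exons of other genes, beside 0% for CDK1. These 3 genes were named after their values were seen. In such whole cultures, fewer cells in a phase of the cycle and less RNA per cell cannot be told apart.

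**Figure D4:**
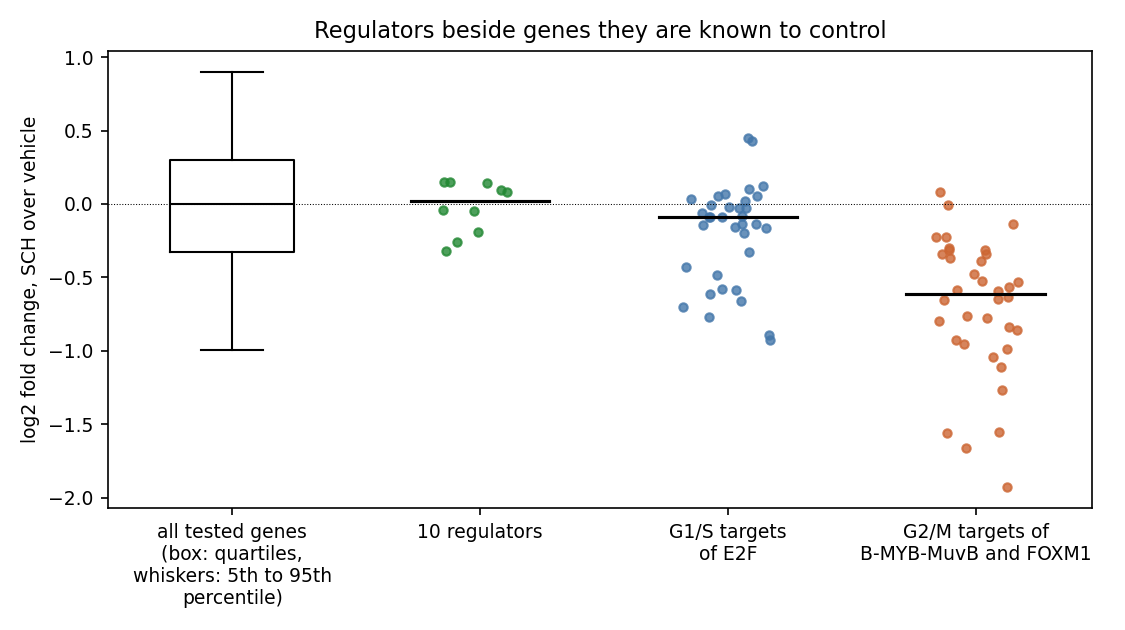
Log2 fold change of SCH over vehicle for all 14736 tested genes (box), the 10 regulators, 35 G1/S targets and 36 G2/M targets, each point a gene and each line a median. The medians are 0.020 for the regulators, -0.092 for the G1/S targets and -0.61 for the G2/M targets.

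Over all tested genes with a RefSeq window, the letters of each kind were set beside the log2 fold changes. The 684 genes with E2F letters had a median log2 fold change of -0.023, beside 0.014 for the 9664 without, and 61.5% of them changed beside 62.2%. Of these 684 genes 207 rose and 214 fell, and of the others 3096 rose and 2917 fell. The 586 genes with both CHR and CCAAT letters had a median of -0.057, beside 0.015 for the other 9762, and 67.2% of them changed beside 61.9%. Of these 586 genes 165 rose and 229 fell, and of the others 3138 rose and 2902 fell.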

How the data were processed

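Raw counts per gene for 6 libraries, as deposited by the authors, were not normalized. The authors also deposited FPKM values, and these were used for levels and ratios. The depth behind the deposited FPKM was 0.992 to 1.005 times the total count in vehicle samples and 1.063 to 1.067 times in SCH samples, so FPKM levels were not scaled by total counts alone, and SCH levels are lower beside vehicle than total counts would give. Ratios within a sample do not depend on this factor. The submitters' processing notes name CASAVA 1.8, HISAT2 2.0.5, featureCounts 1.5.0-p3 and DESeq2 1.20.0, with GRCh38. Every sample had its column, and replicates differed beyond counting noise (chi-square per degree of freedom 2.12 to 5.75).

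The test ran in R 4.3.3 and edgeR 4.0.16 (filterByExpr, TMM, quasi-likelihood test of SCH against vehicle without covariates, Benjamini-Hochberg). The SE of a log2 fold change is its size over the root of the F statistic, and intervals use the moderated degrees of freedom. Depth limits precision to counting error plus the spread between samples, and the common biological coefficient of variation was 5.17%. Alternatives were RLE, upper quartile or no scaling factors, other filters, DESeq2 1.42.0, limma 3.58.1 on log2(FPKM + 1) and log2(FPKM + 0.1), a replicate block, and each sample left out. Exonic overlaps used GENCODE 29, whose starts and ends match the deposited ones for all 148 regulators and listed genes.

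The members and lists were chosen with earlier results of these data known, and the lists come from general knowledge. The rule for naming genes took the regulators, their partners, the 4 smallest p-values of every other list and genes that changed against it. Genes named outside it are marked, and some genes inside it are not reported here.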

Additional observations from a re-analysis of the deposited data

How the results depend on the processing

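The count of changed regulators, 4 in edgeR, was 2 with DESeq2, 1 at an adjusted p under 0.01, and 0 when a log2 fold change of at least 1 was also required (5 of the 10 had an unadjusted p under 0.05 in edgeR). Without one replicate it lay between 1 and 5, and that of the E2F, DP and MYB relatives between 3 and 6. Over all genes, DESeq2 called 7555 of the 17546 it tested. In edgeR, an adjusted p under 0.01 left 7026 of 8650, and the limit of 1 left 1292. E2F1 turned to 0.064 with library size only, and RBL1 to 0.052 with library size only and to 0.0092 without vehicle replicate 3 (range -0.093 to 0.0092 without one replicate), and neither passed the test in any setting. The cause was not tested. The limit of 1 was not applied to the lists. Under the 16 alternatives run for them, the lists other than the relatives stayed within 1.5 times their count, among them the G2/M targets with 30 to 33. The replicate number as a block gave 4 regulators and 8705 genes and changed no call among the regulators. Samples of the same number did not deviate together (correlations -0.022 to 0.046), so the numbers were not taken as pairs. Depth limits the genes with few counts most, as LIN37 with 10 to 34 counts per sample, MYB with 50 to 90, E2F5 with 80 to 225 and E2F2 with 294 to 385.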

Other observations

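Genes whose profile over the 6 samples was nearest to that of a regulator were found by the Euclidean distance of log2 CPM minus the gene's vehicle mean. Among the nearest to FOXM1, the regulator that fell most, were VCL, the vinculin gene (distance 0.0328, log2 fold change -0.32), and RNPS1, which encodes an RNA-binding protein (distance 0.0403, log2 fold change -0.30). Nearest to RB1, the regulator that rose, were UEVLD (distance 0.0437), MAP4K3 (0.0466) and PCNX1 (0.0513), each with a log2 fold change of 0.14 that did not pass edgeR's test.

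Vehicle replicate 3 was the highest vehicle sample for 5 of the 10 regulators and the lowest for 2 of them. Vehicle replicate 1 was the highest for 2 and the lowest for 5, and vehicle replicate 2 for 3 and 3. SCH replicate 2 was the highest SCH sample for 4 and the lowest for 5. Vehicle replicates 1 and 2 were the vehicle pair with the smallest difference in counts (chi-square per degree of freedom 2.12). The pairs with vehicle replicate 3 had 4.49 and 5.75. Among SCH samples, replicates 2 and 3 were closest (2.48), against 4.1 and 5.4 for the pairs with SCH replicate 1. Vehicle replicate 3 was therefore not the only sample set apart in this way. The spread of the regulators between vehicle samples ran from a coefficient of variation of 1.01% for FOXM1 to 13.0% for MYBL1, and between SCH samples from 1.42% for FOXM1 to 7.82% for E2F2.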
